A study of Mus musculus with 3 samples.

Results

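The 32 genes described here make, remodel and move cholesterol and fatty acids. They were listed by name from the pathways, with earlier results of these data known, and are 32 of 25759 genes counted in 3 libraries of follicular regulatory T cells (TFR cells), the Foxp3-bearing T cells that enter B cell follicles. By role they fall into 7 genes of the mevalonate and isoprenoid steps, 11 of the squalene and sterol ring steps, 5 that control the SREBP factors, 6 of the fatty acid steps and 3 of sterol export and transport. TFR cells were sorted as B220-CD4+CXCR5+GITRhi and GFP+ for the *Prdm1* reporter, from spleen and mesenteric lymph nodes of mice given 125 µg NP-KLH in alum, boosted on day 7 and sorted on day 10. Each genotype gave 1 poly(A) RNA library without replicates, so no test between genotypes can be run and no p-value is given.

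The library labelled N comes from Nfatc1fl/fl.Prdm1gfp/+.FIC mice, αA from Nfatc1caaA.Prdm1gfp/+.FIC mice and PαA from Nfatc1caaA.Prdm1gfp/fl.FIC mice. All 3 carry FIC, a Cre recombinase made from the *Foxp3* locus, and a GFP reporter in 1 allele of *Prdm1*, the gene of Blimp-1. The Cre acts on floxed *Nfatc1* in N, switches on a constitutively active form of the NFATc1/αA isoform in αA and PαA, and also acts on the floxed *Prdm1* allele in PαA. No library of mice without Cre was analysed here, and the number of mice pooled per library is not given in the sources used here. *Nfatc1* had an RPKM (exon reads scaled to exon length and library size) of 63.6 in N, 62.9 in αA and 32.4 in PαA, which goes against the labels (the values are totals per gene, and single exons were not read here), so each direction given here is between libraries named by their labels. *Prdm1* had an RPKM of 25.6, 24.9 and 10.0, and *Foxp3* one of 32.7, 20.9 and 15.3. The library totals were 29726219, 27239921 and 25465829 reads. Intervals are 95% counting intervals: they compare libraries, not genotypes, and cover counting error only, since the reads were PCR products without molecular identifiers.

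Cholesterol is built from acetyl-CoA through mevalonate and isoprenoid units to squalene, which is closed into a ring and trimmed step by step. The genes of this route are switched on by SREBP2 and those of fatty acid synthesis mainly by SREBP1, both of which leave the endoplasmic reticulum with their escort SCAP when sterols are low and are held back by the INSIG proteins when sterols are high. When oxysterols accumulate, the LXR receptors raise the sterol exporters ABCA1 and ABCG1. Activated T cells use these pathways for membrane growth, and in regulatory T cells the mevalonate route has been tied to suppressive function.

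Promoter sequences are shown for some of the genes that follow. *Sqle*, *Scd2*, *Abcg1* and *Stard4*, which passed 1.5-fold between PαA and N, had none to show. RefSeq promoter windows (GRCm38.p6, 250 bases before to 50 after a start) were held for 25 of the 32 genes, and *Fdps*, *Fdft1*, *Sqle*, *Scd1*, *Scd2*, *Abcg1* and *Stard4* had no entry. With windows for 25 of 32 genes, a comparison of shares would be void and none is drawn. The percentages say only how common the letters are over all genes. Letters were searched on both strands, and no match of one motif overlapped a match of another in these windows. CACCCCA, the core of a sterol regulatory element read by SREBP, stood in the windows of *Acat2*, *Hmgcs1* and *Srebf2*, and in those of 8.66% of 27025 genes. CCAAT, the box of the SREBP partner NF-Y and held by 41.1% of all genes, was in these windows except those of *Acat2*, *Scap*, *Acaca*, *Elovl6* and *Abca1*. GGGCGG, a GC box of Sp1 held by 38.2%, was in these windows except those of *Pmvk*, *Acaca*, *Fasn* and *Elovl6*. The E-box CACGTG, held by 8.09%, was in the windows of *Hsd17b7*, *Sc5d*, *Dhcr7*, *Scap*, *Insig1* and *Abca1*. The 250 bases before the start follow for the 3 genes that carry CACCCCA and for 2 enzymes without it (*Idi1*, *Sc5d*), with CACCCCA and CCAAT, or CCAAT read on the other strand as ATTGG, in capitals. They lie at chr13:119690101-119690350 (+), chr15:82147019-82147268 (+), chr17:12960726-12960975 (-), chr13:8885356-8885605 (+) and chr9:42264301-42264550 (-).
Hmgcs1: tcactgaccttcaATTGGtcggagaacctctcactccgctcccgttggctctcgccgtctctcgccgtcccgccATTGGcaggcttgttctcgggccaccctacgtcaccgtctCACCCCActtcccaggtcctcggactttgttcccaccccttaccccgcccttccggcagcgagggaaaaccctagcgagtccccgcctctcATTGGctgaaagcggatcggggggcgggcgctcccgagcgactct
Srebf2: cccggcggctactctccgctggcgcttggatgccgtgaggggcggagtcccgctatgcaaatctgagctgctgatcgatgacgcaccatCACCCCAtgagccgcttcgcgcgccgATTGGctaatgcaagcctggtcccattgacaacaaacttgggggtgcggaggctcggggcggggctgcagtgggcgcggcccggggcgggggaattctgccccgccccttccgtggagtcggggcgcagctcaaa
Acat2: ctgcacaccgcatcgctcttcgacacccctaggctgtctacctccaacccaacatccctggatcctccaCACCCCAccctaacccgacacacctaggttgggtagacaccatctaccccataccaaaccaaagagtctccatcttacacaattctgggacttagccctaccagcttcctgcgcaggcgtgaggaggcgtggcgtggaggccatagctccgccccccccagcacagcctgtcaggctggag
Idi1: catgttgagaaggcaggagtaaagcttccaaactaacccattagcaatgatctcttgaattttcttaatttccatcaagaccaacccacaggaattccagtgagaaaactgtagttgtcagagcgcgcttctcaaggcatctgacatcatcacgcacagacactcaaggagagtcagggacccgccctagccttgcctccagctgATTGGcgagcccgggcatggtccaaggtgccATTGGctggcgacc
Sc5d: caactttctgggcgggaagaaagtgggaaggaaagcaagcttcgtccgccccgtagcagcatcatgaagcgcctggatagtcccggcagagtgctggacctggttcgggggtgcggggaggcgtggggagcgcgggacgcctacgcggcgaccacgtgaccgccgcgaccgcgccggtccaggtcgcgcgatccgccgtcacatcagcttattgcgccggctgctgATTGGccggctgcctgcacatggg

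A match is a description of letters, not evidence of a bound factor. In *Hmgcs1* the CACCCCA begins 136 bases before the start and is flanked by ATTGG at 176 and 45 bases, and in *Srebf2* it begins at 161 bases with ATTGG at 135. In *Acat2* it begins at 181 bases with no CCAAT on either strand. Carriers of CACCCCA did not share an order of level: *Hmgcs1* and *Srebf2* were lowest in PαA and *Acat2* highest.

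A direct repeat of the kind LXR reads, searched as GGTNANNNNNGGTCA after the *Abca1* promoter had been seen, stood in the windows of *Abca1*, *Srebf1* and *Fasn* and in those of 0.226% of all 27025 genes. These 3 promoters are shown with the repeat in capitals. They lie at chr4:53159896-53160145 (-), chr11:60210472-60210721 (-, 1 of 3 starts of *Srebf1*) and chr11:120824548-120824797 (-).
Abca1: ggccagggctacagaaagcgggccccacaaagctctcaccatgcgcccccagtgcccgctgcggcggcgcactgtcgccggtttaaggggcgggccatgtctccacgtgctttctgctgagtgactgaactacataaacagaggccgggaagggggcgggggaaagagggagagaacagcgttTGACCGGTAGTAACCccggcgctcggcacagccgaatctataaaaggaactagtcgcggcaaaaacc
Srebf1: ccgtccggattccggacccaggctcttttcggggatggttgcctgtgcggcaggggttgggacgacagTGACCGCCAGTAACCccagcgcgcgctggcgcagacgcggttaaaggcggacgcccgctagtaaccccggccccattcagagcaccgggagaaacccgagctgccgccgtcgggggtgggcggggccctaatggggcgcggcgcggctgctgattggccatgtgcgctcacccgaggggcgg
Fasn: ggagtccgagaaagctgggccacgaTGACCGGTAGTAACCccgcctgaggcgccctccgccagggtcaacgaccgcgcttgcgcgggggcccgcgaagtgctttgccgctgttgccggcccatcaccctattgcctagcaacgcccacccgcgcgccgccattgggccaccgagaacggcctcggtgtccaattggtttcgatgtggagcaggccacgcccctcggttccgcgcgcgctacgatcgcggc

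The repeat begins 67 bases before the start in *Abca1*, 182 in *Srebf1* and 225 in *Fasn*. Its letters are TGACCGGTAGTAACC in *Abca1* and in *Fasn*, and TGACCGCCAGTAACC in *Srebf1*. The RPKM of the 3 genes stood in the order N, αA, PαA from high to low, but so did that of *Srebf2*, *Insig1*, *Scap* and *Dhcr7*, whose windows lack the repeat. After centring on exon length *Srebf1* and *Fasn* were above 0 in both steps, and with TMM factors *Srebf1* was above 0 between αA and N.

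Most of the pathway was expressed. In 1 or more libraries, 24 of the 32 genes (75%) exceeded an RPKM of 5, against 31.8% of the 22044 genes with an exon length, 7017 genes in all. The highest were *Ebp*, the sterol isomerase, with an RPKM of 51.9 in N, 50.1 in αA and 54.3 in PαA, and *Acly*, which makes cytosolic acetyl-CoA from citrate, with 50.3, 50.9 and 45.3. The 8 genes at or below 5 in every library were *Mvk*, *Lss*, *Tm7sf2*, *Hsd17b7*, *Acaca*, *Scd1*, *Elovl6* and *Abca1*. Just inside the threshold stood *Acat2*, with a highest RPKM of 6.16, and just outside it *Mvk*, with 4.21. Together the 32 genes took 47912, 39285 and 32981 exon reads of the 3 libraries.

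**Figure D1:**
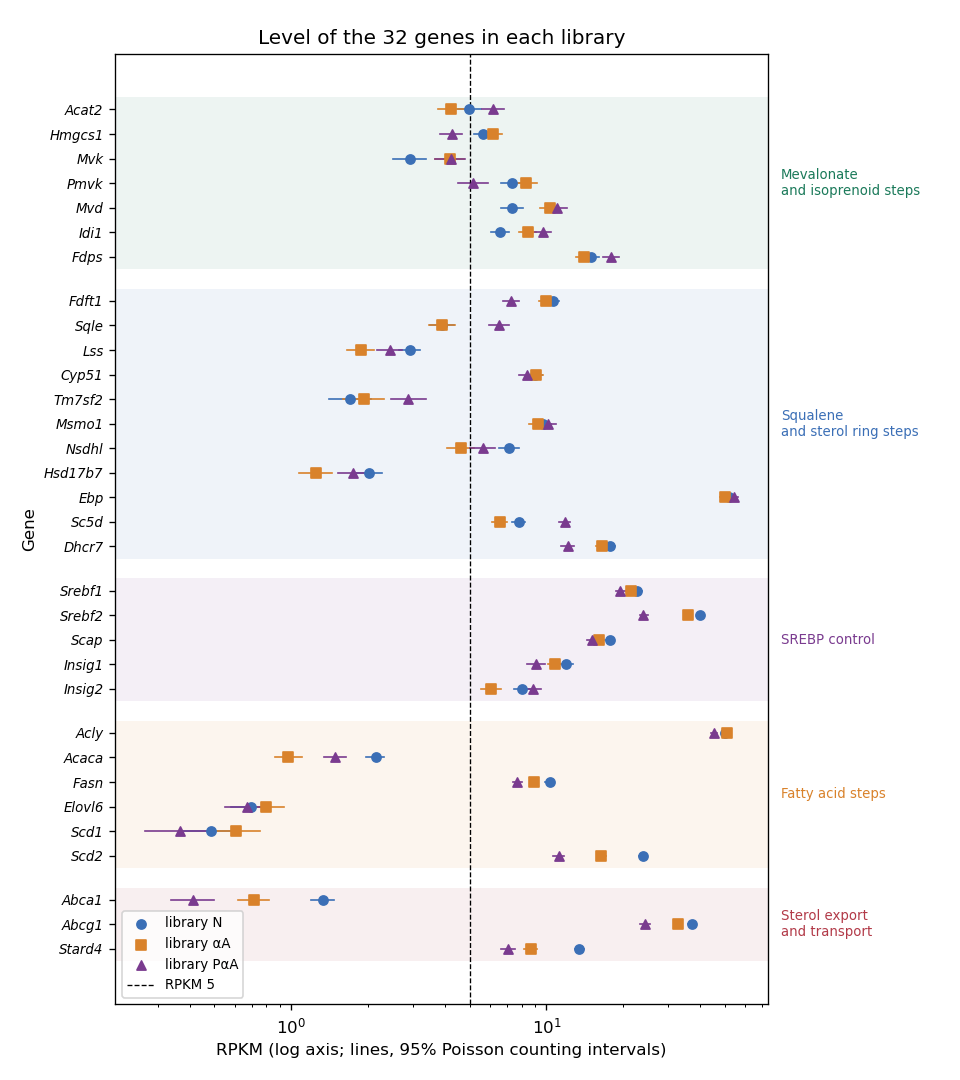
RPKM of the 32 genes in the 3 libraries on a log axis, with 95% Poisson counting intervals as lines, grouped by role; the dashed line is the RPKM threshold of 5. *Ebp* and *Acly* lie near 50 in every library, *Srebf2*, *Scd2*, *Abcg1* and *Stard4* step down from N to PαA, and *Sqle* and *Sc5d* lie highest in PαA.

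Counts of the 24 expressed genes past 2-fold and 1.5-fold are given beside the shares of all expressed genes. Past 2-fold there were 0 of 24 between αA and N, where 4.25% of all expressed genes were, 0 of 24 between PαA and αA, where 4.63% were, and 1 of 24 (*Scd2*, lower, as were 7.77% of all) between PαA and N, where 10.3% of all were past 2-fold in either direction. Past 1.5-fold there were 2 between αA and N (14.1% of all), *Nsdhl* and *Stard4*, both lower (11.0% of all). Between PαA and αA there were 3 (14.7% of all), *Sqle* and *Sc5d* higher (5.53% of all) and *Pmvk* lower (9.19%). Between PαA and N there were 7 (28.0% of all), *Mvd*, *Sqle* and *Sc5d* higher (5.67% of all) and *Srebf2*, *Scd2*, *Abcg1* and *Stard4* lower (22.3%). The 3 comparisons share libraries and are not independent of each other.

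The median log2 ratio of the 24 genes was -0.09 between αA and N, -0.13 between PαA and αA and -0.23 between PαA and N, beside -0.14, -0.06 and -0.19 for all expressed genes. With TMM factors, which rescale for the composition of each library, the medians of the 24 were 0.07, -0.06 and 0, and those of all expressed genes 0.02, 0.01 and 0.04, so that the sign of the first depends on the scaling. The list as a whole therefore stood close to all expressed genes, while its members spread between -1.10 and 0.74 from N to PαA.

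**Figure D2:**
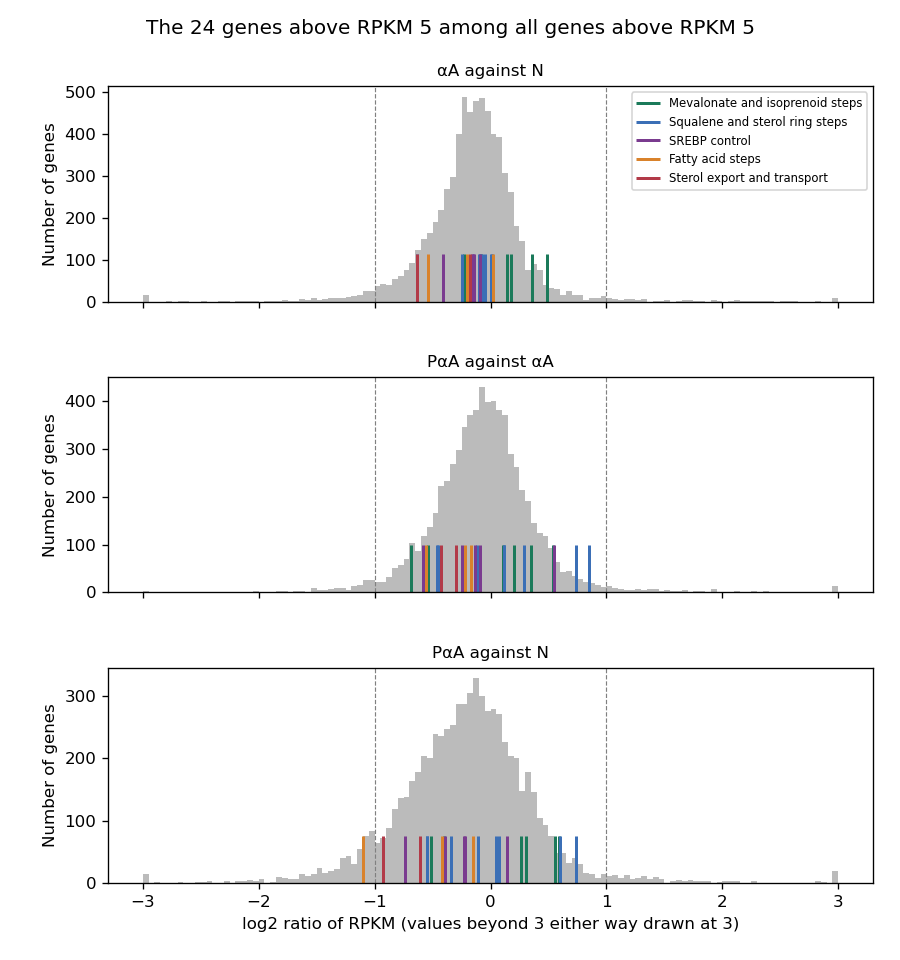
Number of expressed genes by log2 ratio of RPKM in each of the 3 comparisons (grey bars), with the 24 expressed pathway genes as coloured lines by role and dashed lines at 2-fold. The lines spread through the bulk of the grey distribution, and only *Scd2*, at -1.10 between PαA and N, lies outside the dashed lines.

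The roles differed in direction, a description with no test. The summed RPKM of the 7 mevalonate and isoprenoid genes was 49.7 in N, 55.8 in αA and 58.5 in PαA, and that of the 11 squalene and sterol ring genes 124, 115 and 123. In contrast, the sum of the 5 genes of SREBP control was 100, 90.1 and 76.5, that of the 6 fatty acid genes 87.8, 78.7 and 66.7, and that of the 3 export and transport genes 51.9, 42.1 and 31.8. Between PαA and N the median log2 ratio of the expressed members was 0.29 for the mevalonate steps (6 genes) and -0.03 for the sterol ring (8 genes). It was -0.23 for SREBP control (5 genes), -0.42 for the fatty acid steps (3 genes, the value of *Fasn*) and -0.77 for export and transport (2 genes). With TMM factors these were 0.51, 0.20, 0, -0.19 and -0.54, in the same order, with the sterol ring then above 0. After centring on genes of the same exon length they were 0.36, 0.13, 0.15, 0.24 and -0.41, so that SREBP control and the fatty acid steps turned sign and the order of the roles was lost.

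**Figure D3:**
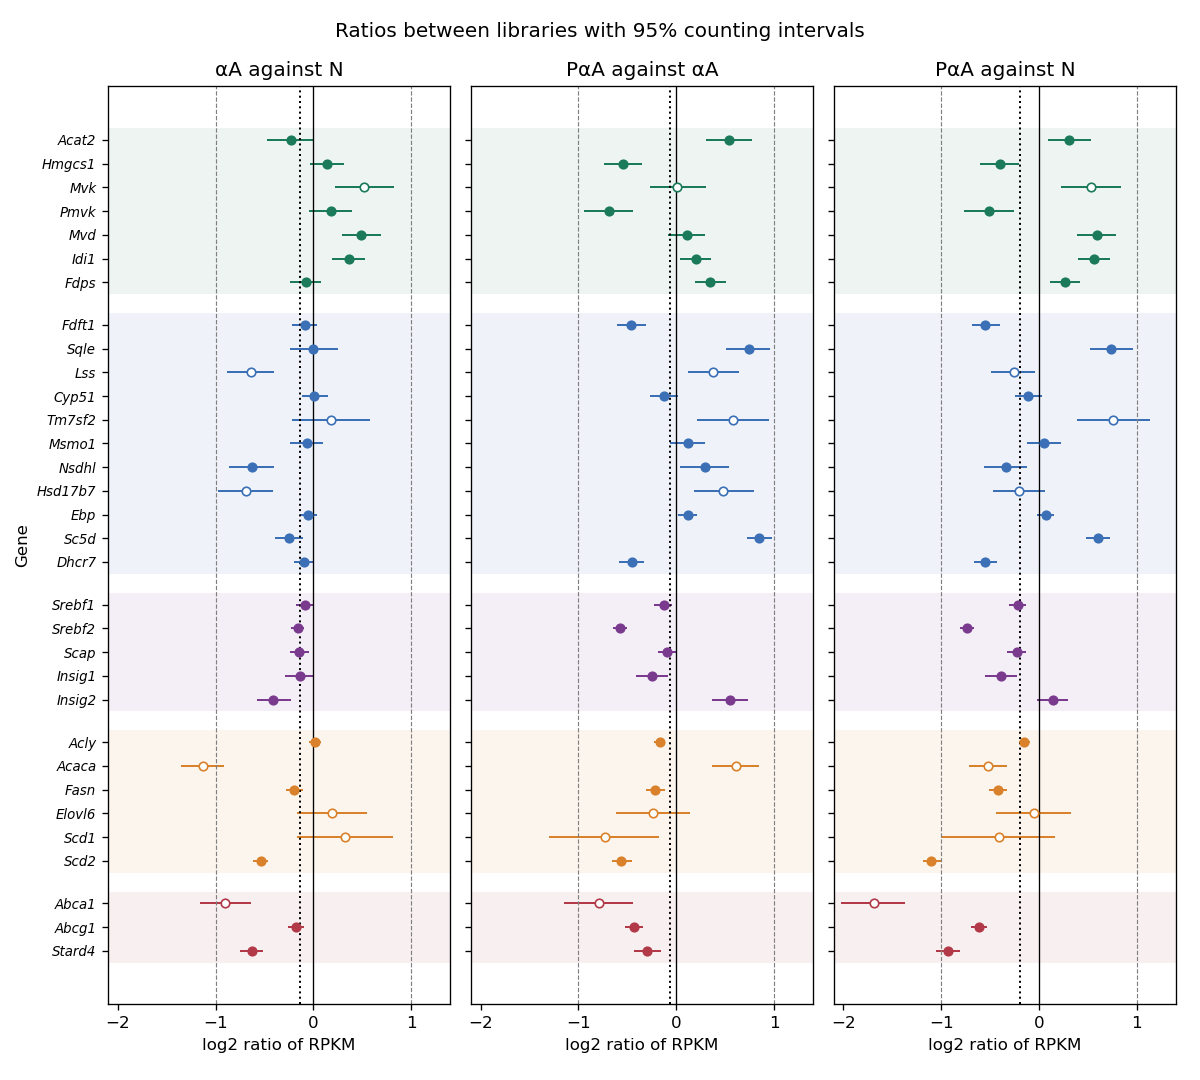
Log2 ratio of RPKM for each of the 32 genes in the 3 comparisons, with 95% counting intervals; filled points are genes above RPKM 5 and open points the 8 others, the dotted line is the median of all expressed genes and the dashed lines mark 2-fold. From αA to PαA *Sc5d*, *Sqle* and *Insig2* lie to the right while *Pmvk*, *Srebf2*, *Scd2* and *Hmgcs1* lie to the left.

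Within the mevalonate steps, neighbouring enzymes went opposite ways. *Mvd*, which makes isopentenyl diphosphate, had an RPKM of 7.33 in N, 10.3 in αA and 11.0 in PαA. *Idi1*, the isomerase that follows it, had 6.59, 8.45 and 9.72. Both were lowest in N, with log2 ratios between PαA and N of 0.59 (interval 0.40 to 0.78) and 0.56 (0.41 to 0.72). Only 27.9% of the *Mvd* reads in N were unique to the gene, and the unique reads alone, 113, 137 and 150, gave 0.69. *Mvk*, the kinase that acts on mevalonate, was low but also lowest in N, with 173, 227 and 214 reads (RPKM 2.92, 4.18 and 4.21).

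*Pmvk*, the kinase between *Mvk* and *Mvd*, had an RPKM of 7.36 in N, 8.32 in αA and 5.16 in PαA. *Hmgcs1*, the synthase that makes HMG-CoA and whose promoter with CACCCCA is shown above, had 5.63, 6.20 and 4.25. In both genes PαA was the lowest library and N and αA could not be separated by counting error. The log2 ratio between PαA and αA was -0.69 (interval -0.93 to -0.45) for *Pmvk* and -0.54 (-0.73 to -0.36) for *Hmgcs1*. *Acat2*, the cytosolic thiolase of the first step, had 4.98, 4.24 and 6.16 and was highest in PαA. Of its reads 59.9%, 68.1% and 57.0% were unique. Unique reads alone gave a log2 ratio between PαA and αA of 0.32, in place of 0.54.

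*Fdps*, which makes farnesyl diphosphate and was the most abundant of these 7 genes, had an RPKM of 14.9 in N, 14.1 in αA and 17.9 in PαA. Only 17.0% of its reads in N were unique. The unique reads, 134, 70 and 137, put αA far below the other libraries (log2 ratio -0.79 against N), whereas all reads gave -0.08 (interval -0.23 to 0.07), so the level of *Fdps* in αA is uncertain. It shares 1124 exon bases on the same strand with *Gm43738*, which had 0 reads.

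Of the 11 squalene and sterol ring genes, *Ebp*, *Msmo1* and *Cyp51* differed least across the libraries. *Msmo1*, the C4 methyl oxidase, had an RPKM of 9.69, 9.26 and 10.1, and *Cyp51*, the lanosterol demethylase, 9.05, 9.12 and 8.39. Their counting intervals between PαA and N covered 0, as did that of *Ebp* (log2 ratio 0.07, interval -0.01 to 0.14).

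*Sqle* (ENSMUSG00000022351, chr15:59315077-59331192 in GRCm38), the squalene epoxidase and a rate-limiting step of the route, drew 320, 294 and 458 reads from N, αA and PαA, and its RPKM was 3.90, 3.91 and 6.52. *Sc5d* (ENSMUSG00000032018, chr9:42251595-42264256 in GRCm38), which sets the C5 double bond, had an RPKM of 7.78, 6.56 and 11.8. In both genes PαA stood above the other libraries. The log2 ratio between PαA and αA was 0.74 for *Sqle* (interval 0.52 to 0.95) and 0.85 for *Sc5d* (0.73 to 0.97), the largest among the 24 expressed genes. At low level *Tm7sf2*, a C14 sterol reductase, was also highest in PαA, with 109, 113 and 158 reads. It shares 532 exon bases on the same strand with *Vps51*, which had 992, 901 and 933 reads.

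*Dhcr7* and *Fdft1* went the other way. *Dhcr7*, the last reductase before cholesterol on its branch, had an RPKM of 17.7 in N, 16.5 in αA and 12.1 in PαA, and *Fdft1*, the squalene synthase, 10.6, 9.98 and 7.26. PαA was lowest in both, with log2 ratios to αA of -0.45 (interval -0.57 to -0.34) and -0.46 (-0.60 to -0.32). *Fdft1* shares 774 exon bases on the opposite strand with *Ctsb*, a cathepsin gene with 35297, 33163 and 20633 reads, and the counting is not stated to use strand, so its reads cannot be told apart from those of *Ctsb* there.

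A further pattern, lowest in αA, was seen in *Nsdhl*, the C4 decarboxylating dehydrogenase, whose RPKM was 7.14, 4.62 and 5.65. Against N, αA stood at -0.63 on the log2 scale (interval -0.85 to -0.41), or -0.47 with TMM factors. The 2 low genes *Lss*, the cyclase that closes the ring, and *Hsd17b7*, the C3 ketoreductase, were also lowest in αA, with 427, 251 and 305 and with 303, 172 and 225 reads.

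*Srebf2* (ENSMUSG00000022463, chr15:82147266-82205376 in GRCm38), the gene of SREBP2 itself, was the most abundant of the 5 control genes in N, αA and PαA, at an RPKM of 40.1, 35.9 and 24.0 (5949, 4873 and 3050 reads). The drop lay mainly between αA and PαA, where the log2 ratio was -0.58 (interval -0.64 to -0.51), beside -0.16 between αA and N (-0.22 to -0.11). The step between αA and N was 0 with TMM factors and 0.07 after length centring. That between PαA and αA was then -0.51 and -0.39. *Srebf1*, the gene of SREBP1, had 22.7, 21.4 and 19.5, with a log2 ratio between PαA and N of -0.22 (-0.30 to -0.14) that became 0.01 with TMM factors. The ratio of *Srebf2* to *Srebf1* within a library was 1.76 in N (1.69 to 1.84), 1.68 in αA (1.60 to 1.76) and 1.23 in PαA (1.17 to 1.30).

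The 2 INSIG genes parted as well. *Insig1* had an RPKM of 11.9 in N, 10.8 in αA and 9.11 in PαA, and *Insig2* 8.02, 6.05 and 8.84. The ratio of *Insig1* to *Insig2* was 1.49 in N (interval 1.35 to 1.64) and 1.79 in αA (1.60 to 2.00), but 1.03 in PαA (0.923 to 1.15). From αA to PαA *Insig2* was higher by 0.55 on the log2 scale (0.38 to 0.72) while *Insig1* was at -0.25 (-0.40 to -0.09). *Scap*, the escort, had 17.7, 16.0 and 15.1 and differed least of the 5 in that step (log2 ratio -0.09, interval -0.18 to 0). *Mbtps1*, the first protease that frees SREBP in the Golgi, is not among the 32 and was looked at after its values were seen: it had 26.7, 23.9 and 15.2.

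Of the 14 expressed enzymes of the sterol route, 5 were lowest by RPKM in PαA as *Srebf2* was (*Hmgcs1*, *Pmvk*, *Fdft1*, *Cyp51* and *Dhcr7*). By RPKM 8 were highest there (*Acat2*, *Mvd*, *Idi1*, *Fdps*, *Sqle*, *Msmo1*, *Ebp* and *Sc5d*). Some of these differences were within counting error, and the tally depends on the scaling. By TPM *Ebp* and *Msmo1* were lowest in PαA, with log2 ratios to N of -0.13 and -0.14 and to αA of -0.05 each. *Mvd* was then highest in αA (log2 ratio of PαA to αA -0.06). With TMM factors *Cyp51* was lowest in N (log2 ratio of PαA to N 0.12). The shares of all expressed genes lowest or highest in PαA were not counted, so the tally is no result about these enzymes. Of 7004 expressed genes with reads in both libraries, 4655 were lower in PαA than in N. Against αA, 3986 of 7004 were lower in PαA. No protein and no sterol was measured in these files.

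Among the fatty acid genes *Scd2* (ENSMUSG00000025203, chr19:44293676-44306864 in GRCm38) showed the largest difference of the 24. This stearoyl-CoA desaturase drew 3872, 2440 and 1551 reads from N, αA and PαA, and its RPKM was 23.9, 16.4 and 11.2. Each library lay below the one before it, with log2 ratios of -0.54 (interval -0.61 to -0.47) and -0.56 (-0.65 to -0.46). The ratio between PαA and N was -1.10 (-1.18 to -1.01), or 2.14-fold lower, and -0.87 with TMM factors, which is under 2-fold. Its paralog *Scd1*, the main form in liver and fat, was nearly silent, with 70, 80 and 45 reads, so that *Scd2* exceeded it 49.1-fold, 27.0-fold and 30.6-fold per exon length.

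*Acly* and *Fasn* differed less. *Fasn*, the fatty acid synthase, had an RPKM of 10.3 in N, 8.94 in αA and 7.69 in PαA. Its log2 ratio between PαA and N was -0.42 (interval -0.50 to -0.34), but 0.38 after centring on genes of the same exon length, so its direction depends on this choice. *Acaca*, the acetyl-CoA carboxylase between them, was low and fell outside the filter, with 643, 269 and 383 reads and a log2 ratio of -1.13 (-1.34 to -0.92) between αA and N. That ratio was -0.97 with TMM factors, -0.68 after length centring and -0.67 with a pseudocount of 1, all under 2-fold. *Elovl6*, an elongase, had 133, 139 and 110 reads.

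The 3 genes of sterol export and transport had their highest RPKM in N and their lowest in PαA. Expressed genes as a whole leaned the same way. Of those with reads in both libraries, 4769 of 7000 were lower in αA than in N, and 3986 of 7004 lower in PαA than in αA. *Abcg1* (ENSMUSG00000024030, chr17:31057698-31115777 in GRCm38), which hands sterols to lipoproteins, had an RPKM of 37.1, 32.7 and 24.3. *Stard4*, a soluble carrier of sterols between membranes, had 13.4, 8.67 and 7.06. The drop of *Abcg1* lay mainly in the second step (log2 ratio -0.43, interval -0.51 to -0.35) and that of *Stard4* mainly in the first (-0.63, -0.74 to -0.53). Between PαA and N they were at -0.61 (-0.69 to -0.54) and -0.93 (-1.04 to -0.82), and with TMM factors at -0.38 and -0.70. In the first step *Abcg1* was at -0.18 (-0.25 to -0.11), but at -0.02 with TMM factors and -0.03 after length centring.

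*Abca1*, the exporter with the repeat shown above, drew 406, 200 and 108 exon reads from N, αA and PαA, an RPKM of 1.33, 0.715 and 0.413. It stayed under the threshold of 5, and its log2 ratio between PαA and N, -1.69 (interval -2.01 to -1.38), was the lowest of all 32. It was -0.91 after length centring and -0.72 with a pseudocount of 1, both under 2-fold. Its intron reads ran otherwise, at 33, 111 and 87, so that introns made up 7.52%, 35.7% and 44.6% of its reads, beside 3.62%, 5.30% and 3.91% over all genes. *Acaca* had intron reads of 61, 122 and 80 (8.66%, 31.2% and 17.3% of its reads). Over the 32 genes introns took 1.59%, 2.81% and 2.32%. The part of introns in the exon counts was not tested. Per exon length *Abcg1* exceeded *Abca1* 27.9-fold in N (25.2 to 31.0), 45.8-fold in αA (39.7 to 53.1) and 58.9-fold in PαA (48.5 to 72.1).

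Of 47 other genes of sterol and fatty acid metabolism, 35 were above the threshold, and 1 of them passed 2-fold between αA and N (4.25% of all expressed genes), 0 between PαA and αA (4.63%) and 0 between PαA and N (10.3%). Past 1.5-fold between PαA and N there were 2 higher (5.67% of all) and 6 lower (22.3%). The gene past 2-fold was *Fabp5*, a fatty acid carrier, with an RPKM of 73.0 in N, 30.3 in αA and 47.0 in PαA (log2 ratio between αA and N -1.27). Their median log2 ratios were -0.11, -0.15 and -0.19. The LXR genes, looked at after their values were seen, did not follow *Abca1* and *Abcg1*: *Nr1h3* (LXRα) had 9.33, 8.73 and 15.3 and *Nr1h2* (LXRβ) 30.2, 36.1 and 30.7. Of their partners, *Rxra* had 11.3, 8.23 and 6.19 and the more abundant *Rxrb* 19.0, 19.9 and 18.1. The log2 ratio of *Rxrb* between PαA and N was -0.07 (interval -0.18 to 0.03).

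Macrophages also express the exporters and *Nr1h3*, and their transcripts were present in the sort. The 11 macrophage and monocyte markers summed to an RPKM of 318 in N, 307 in αA and 349 in PαA with none at 0. *Lyz2*, at 214, 134 and 184, carried most of that sum, and the other 10 summed to 104, 174 and 166. Of the 7 markers above the threshold 6 were higher in αA than in N (median log2 ratio 0.72). Of 7000 expressed genes with reads in both libraries, 2231 were higher. *Adgre1*, at 2.30, 5.32 and 4.93, and *C1qa*, at 35.8, 75.8 and 78.4, were past 2-fold, as were 4.25% of all expressed genes in either direction. The 8 neutrophil markers summed to 40.1, 0.831 and 27.6, with 7 of 8 at 0 in αA and *Mpo* and *Elane* at 0 in PαA, and the 7 B cell markers to 16.0, 12.8 and 14.5 with *Ighm* at 0 in all. The 4 dendritic cell markers summed to 2.23, 1.46 and 1.58 and the 5 CD8 and NK markers to 13.6, 20.4 and 17.2. The TFR and sort markers summed to 2080, 1910 and 1290. In PαA 11 of 11 were lower than in αA, as were 3986 of 7004 expressed genes with reads in both libraries. The 8 proliferation genes summed to 243, 229 and 226. *Pcna*, at 153, 152 and 163, carried most of that sum, and its lowest share of unique reads in a library was 45.8%. *Top2a* had 10.5, 4.87 and 3.47, *Mki67* 2.68, 0.401 and 0.519 and *Ccnb1* 2.78, 3.32 and 4.69. *Cdk1*, *Mcm2*, *Mcm5* and *Tyms* stepped down by RPKM from N to αA to PαA. Their log2 ratios between PαA and N were -0.65, -0.43, -0.46 and -0.35, or -0.43, -0.2, -0.23 and -0.12 with TMM factors. Of the 5 above the threshold, 4 were lower in PαA than in N. Of 7004 expressed genes with reads in both libraries, 4655 were. The part of these cells and of proliferation in the pathway values was not tested, and in a bulk library fewer cells of a type cannot be told apart from less RNA per cell.

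Gene length moved with the ratios. Split by exon length into 3 groups of 2339, the expressed genes had a median log2 ratio between PαA and N of 0.05 in the shortest, -0.18 in the middle and -0.47 in the longest group. The expressed pathway genes had a median exon length of 3548 bases, against 2966 for all expressed genes. After centring on genes of the same length, *Scd2* was at -0.64, *Stard4* at -0.49, *Abcg1* at -0.33 and *Srebf2* at -0.32 between PαA and N, all still below 0, and *Sc5d* at 1.01 and *Sqle* at 0.90. *Cyp51*, *Srebf1*, *Scap*, *Acly* and *Fasn*, all below 0 as counted, were then above 0. The cause of the length trend was not tested.

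**Figure D4:**
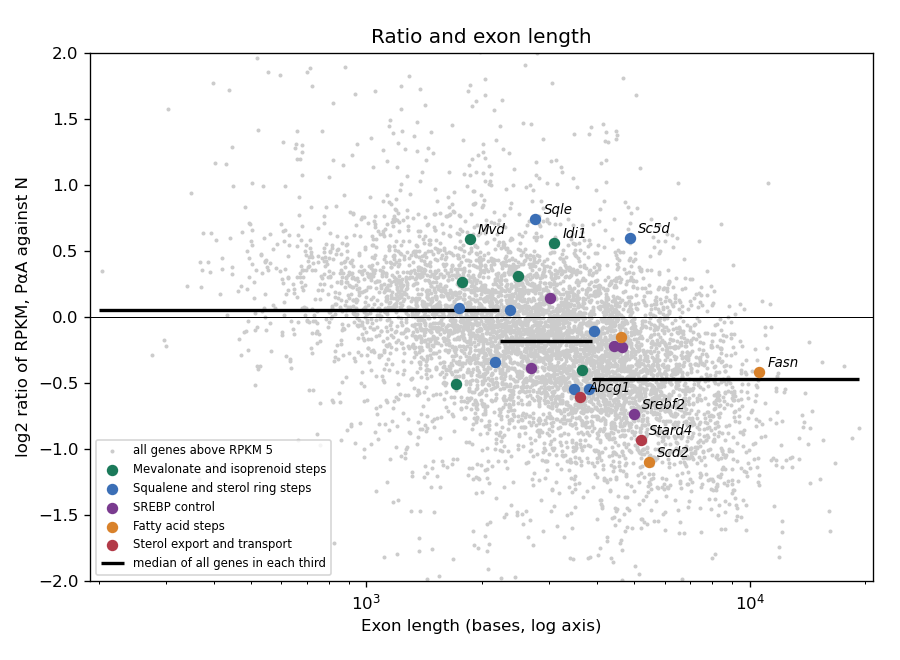
Log2 ratio of RPKM between PαA and N against exon length in bases (log axis) for all expressed genes (grey) and the 24 expressed pathway genes coloured by role; black bars are medians of all genes in 3 equal groups by length, and grey points beyond 2 either way are not drawn. The bars step down from 0.05 to -0.18 and -0.47, *Sc5d* lies far above the bar of its group, and *Scd2* and *Stard4* lie below it.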

How the data were processed

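RNA of sorted TFR cells was sequenced as single reads of 59 bases in 3 libraries, 1 per genotype, grouped by the genotype label. Adapter trimming, alignment to GRCm38 and counting per gene were done by the authors in CLC Genomics Workbench version 12 with default RNA-Seq settings. The annotation release is not given in the sources used here. They deposited, for each gene, the count of total and unique exon reads, gene reads, and RPKM and TPM written with decimal commas. The column called expression value equals the total exon reads. Their RPKM is scaled to exon length and to a library size above the sum of exon reads.

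From these values, ratios of RPKM between libraries were formed for genes above RPKM 5 in at least 1 library, and called at 2-fold, with 1.5-fold added here. The study filtered on an expression value above 5 and 2-fold, and reading that value as RPKM is a choice made here. Intervals are exact Clopper-Pearson (ratios) or Poisson (RPKM) at 95%. The library totals behind the RPKM were worked back from the deposited values. With 1 library per genotype no test was run. The 32 genes and all other lists were chosen with earlier results of these data known. Values per library are given for genes past 2-fold, past 1.5-fold or leading a role, and for further genes that show how a role varied. Other pathway genes were named where they passed RPKM 5 and 2-fold. Single markers and exon neighbours, and genes said to be so, were picked after their values were seen.

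Alternatives were TPM, TMM factors from edgeR 4.0.16 (R 4.3.3) on the counts, median-of-ratios factors, unique reads, pseudocounts of 1 and 0.1, RPKM above 1 or no filter, and lowess centring on exon length (fraction 0.3). Overlaps between exons came from GENCODE vM21, in which 28 of the 32 genes had the same start and end. Software was matplotlib 3.10.9, statsmodels 0.14.6, scipy 1.17.1, numpy 2.4.6 and pandas 2.3.3 under Python 3.11.15. The calls and intervals were tested on simulated Poisson counts, which hold counting error only. The centring was tested on simulated ratios with a linear trend in exon length. Promoters were read from a RefSeq table. Some further genes of the pathway are not reported here.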

Additional observations from a re-analysis of the deposited data

How the results depend on the processing

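With 1 library per genotype no library could be left out, so stability between mice is unknown. No paired analysis was possible because each genotype has 1 library. Between αA and N the count past 2-fold went from 0 to 1 with RPKM above 1 and with no filter (*Acaca*) and was 2 at 1.5-fold, and the median of -0.09 became 0.07 with TMM, 0.08 with median-of-ratios factors and 0.06 with length centring. Between PαA and αA the count of 0 became 1 with length centring and 3 at 1.5-fold, and the median of -0.13 became -0.25 with TPM and 0.05 with length centring. Between PαA and N the count of 1 became 2 with TPM, with RPKM above 1 and with no filter, 0 with TMM and median-of-ratios factors, and 7 at 1.5-fold, and the median of -0.23 became -0.42 with TPM, 0 with TMM, 0.02 with median-of-ratios factors and 0.15 with length centring. Signs of single genes changed for 8 of 32 with TMM between αA and N, 0 between PαA and αA and 5 between PαA and N, and with length centring for 8, 6 and 9. The cause of these changes was not tested. Counts under 100 reads, as for *Scd1*, leave wide intervals.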

Other observations

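Genes that burn or release fatty acids were read beside those that make them, and were chosen after their values were seen. *Cpt1a*, which admits long fatty acids to mitochondria, had an RPKM of 25.6 in N, 15.0 in αA and 13.5 in PαA. The beta-oxidation genes *Acadm*, at 12.1, 9.32 and 7.38, and *Hadha*, at 46.6, 36.6 and 32.9, had the same order of libraries. The median log2 ratio of all expressed genes was also below 0 in both steps, at -0.14 and -0.06. With TMM factors the 2 steps were -0.61 and -0.09 for *Cpt1a*, -0.22 and -0.27 for *Acadm* and -0.19 and -0.08 for *Hadha*. *Acadvl*, of the same route, was level at 40.2, 36.5 and 41.7. *Lipa*, the lysosomal lipase that frees cholesterol and fatty acids from their esters, stood at 36.6, 71.4 and 60.5, lowest in N. Of the macrophage markers *C1qa*, at 35.8, 75.8 and 78.4, *C1qb*, *Adgre1*, *Csf1r*, *Cd68* and *Fcgr1* were also lowest in N. *Lyz2*, at 214, 134 and 184, and *Cd14*, at 2.33, 1.31 and 0.799, were highest there. *Mertk* and *Vcam1* were lowest in PαA and *Marco* in αA. The part of macrophage RNA in the level of *Lipa* was not tested.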
